A study of Mus musculus with 4 samples.

Results

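The 44 genes described here make the machinery that copies DNA and the enzymes that supply its deoxynucleotides. They were taken by symbol from the count table of 55487 genes through the GENCODE M21 annotation, and all 44 were found. They comprise 9 genes of origin licensing, 12 of the replicative helicase, 8 of the polymerases and primase, 8 of the sliding clamp, its loader and strand joining, 3 of single-strand binding and 4 of deoxynucleotide supply. Messenger RNA came from bulk hepatocellular carcinoma tissue of 4 Alb-cre H11-myc mice, which express Cre from the albumin promoter, carry a c-Myc transgene at H11 and form liver tumours spontaneously. The labels give 2 mice as wild type and 2 as Tfrc knockout in the liver. Tfrc encodes the receptor that takes up transferrin-bound iron. Albumin-driven Cre acts in hepatocytes and their tumours, and which other cells of the tissue kept Tfrc cannot be told from the counts. The sources used here do not give the age of the mice, the deleted exons or whether wild type mice carried unrecombined Tfrc alleles.

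DNA replication starts at origins, where the origin recognition complex, CDC6 and CDT1 load a ring of MCM2 to MCM7 onto DNA before S phase. CDC45 and the GINS complex turn the ring into a working helicase, polymerases copy both strands, and PCNA, loaded by replication factor C, holds the polymerases on DNA. Ribonucleotide reductase makes deoxynucleotides, and its small subunit, encoded by Rrm2, carries the iron centre that starts the reaction. Most of these genes are transcribed in late G1 and S phase under E2F factors, and in adult liver they are low until hepatocytes divide in regeneration or cancer.

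Total counts ran from 15918349 to 17052943 in the 4 libraries. Values are CPM, read counts divided by the library total after TMM scaling, and all 44 members passed the filter on low counts, with 41 to 4072 counts in a library. Wild type replicate 2 stood apart from the other libraries on the first principal component of all tested genes, at 86.6 against -38.5 to -11.2. Tfrc did not check the labels: wild type replicates 1 and 2 had 8441 and 3603 counts of it, knockout replicates 1 and 2 had 5407 and 3244, and the groups overlapped. The groups are therefore called the libraries labelled wild type and knockout, and fold changes are given as labelled knockout over wild type. The smallest two-sided p that exact permutation allows for 2 against 2 libraries is 0.333. Genes were therefore tested in models fitted across 16310 genes, with edgeR's quasi-likelihood test as the main one.

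The 4 lowest fold changes of the set were those of the MCM ring genes Mcm6, Mcm3, Mcm2 and Mcm7. The start regions of ring genes and of both subunits of ribonucleotide reductase are shown so that the motifs of their known regulators can be seen beside the values. They run from 250 bases before to 50 bases after the annotated start, 5′ to 3′ on the gene's strand, from RefSeq for GRCm38.p6. Capitals mark the E2F motif, searched as TTTCCCGC, TTTCGCGC, TTTGCCGC and TTTGGCGC, and the CCAAT box that NF-Y binds, searched as CCAAT, on both strands. Overlapping matches are merged into 1 run of capitals, as in Mcm7 where an E2F match runs into a CCAAT match. Mcm4 is not in the promoter table, and the first of the 2 Mcm7 starts is shown.
Mcm6 (chr1:128359656-128359955, minus strand): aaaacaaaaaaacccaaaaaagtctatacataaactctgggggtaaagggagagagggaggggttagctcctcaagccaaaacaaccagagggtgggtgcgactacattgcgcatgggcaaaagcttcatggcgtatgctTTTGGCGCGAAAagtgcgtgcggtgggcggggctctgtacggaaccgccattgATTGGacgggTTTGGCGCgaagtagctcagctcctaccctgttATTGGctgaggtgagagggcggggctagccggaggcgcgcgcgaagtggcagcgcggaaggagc
Mcm3 (chr1:20820263-20820562, minus strand): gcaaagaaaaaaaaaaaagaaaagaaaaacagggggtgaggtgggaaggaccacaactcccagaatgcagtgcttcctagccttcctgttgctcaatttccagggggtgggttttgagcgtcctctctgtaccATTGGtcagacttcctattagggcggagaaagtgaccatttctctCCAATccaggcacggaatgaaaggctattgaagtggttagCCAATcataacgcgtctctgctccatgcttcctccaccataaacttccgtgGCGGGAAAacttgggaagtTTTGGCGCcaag
Mcm7 (chr5:138171834-138172133, minus strand): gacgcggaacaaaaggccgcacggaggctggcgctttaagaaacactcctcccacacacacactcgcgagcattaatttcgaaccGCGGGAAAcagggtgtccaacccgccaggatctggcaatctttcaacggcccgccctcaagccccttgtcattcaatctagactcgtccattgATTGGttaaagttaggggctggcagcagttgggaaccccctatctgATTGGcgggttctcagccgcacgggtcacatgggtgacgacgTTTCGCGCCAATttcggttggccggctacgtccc
Mcm2 (chr6:88898731-88899030, minus strand): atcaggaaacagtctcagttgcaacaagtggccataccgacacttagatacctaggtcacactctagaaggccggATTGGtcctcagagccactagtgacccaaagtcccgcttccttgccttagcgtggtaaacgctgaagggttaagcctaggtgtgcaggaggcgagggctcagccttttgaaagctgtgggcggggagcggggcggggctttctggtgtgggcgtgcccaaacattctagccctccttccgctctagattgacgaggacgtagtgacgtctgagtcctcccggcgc
Mcm5 (chr8:75109259-75109558, plus strand): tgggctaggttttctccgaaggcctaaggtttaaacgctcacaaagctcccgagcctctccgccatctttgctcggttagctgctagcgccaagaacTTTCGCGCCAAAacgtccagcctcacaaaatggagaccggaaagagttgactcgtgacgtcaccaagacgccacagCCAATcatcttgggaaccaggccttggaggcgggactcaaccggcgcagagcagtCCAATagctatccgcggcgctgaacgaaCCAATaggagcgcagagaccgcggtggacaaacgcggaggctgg
With each strand counted separately, the E2F motif matched 3 times in the Mcm6 region and 2 times each in those of Mcm3, Mcm5 and the Mcm7 start shown. Both Mcm5 matches overlap on opposite strands in the same run of capitals, as do the first and second Mcm6 matches. The matches of Mcm3 and of Mcm7 lie apart. The second Mcm7 start held 0 E2F matches and 1 CCAAT match. The Mcm2 region held 0 E2F matches and 1 CCAAT match. The regions of the reductase subunits held 0 E2F matches, with 2 CCAAT matches for Rrm1 and 1 for Rrm2.
Rrm1 (chr7:102441445-102441744, plus strand): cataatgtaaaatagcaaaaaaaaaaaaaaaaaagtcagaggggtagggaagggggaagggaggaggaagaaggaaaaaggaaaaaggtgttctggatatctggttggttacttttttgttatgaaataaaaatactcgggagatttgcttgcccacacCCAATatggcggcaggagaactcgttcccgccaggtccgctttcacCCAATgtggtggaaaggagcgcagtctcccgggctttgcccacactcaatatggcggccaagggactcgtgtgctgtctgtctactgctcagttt
Rrm2 (chr12:24708004-24708303, plus strand): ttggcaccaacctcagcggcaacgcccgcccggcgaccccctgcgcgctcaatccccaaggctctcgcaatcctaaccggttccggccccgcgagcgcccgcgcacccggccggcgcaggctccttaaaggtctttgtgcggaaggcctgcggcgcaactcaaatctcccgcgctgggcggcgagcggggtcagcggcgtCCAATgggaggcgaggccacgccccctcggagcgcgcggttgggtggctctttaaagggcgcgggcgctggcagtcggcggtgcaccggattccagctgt
Of the 44 regions listed for 36 members, 31.8% held the E2F motif, against 3.6% of 14196 regions of tested genes and 2.26% of all 32851 regions. CCAAT occurred in 56.8% of members' regions against 37.6% of those of tested genes, and the MYC-binding E-box CACGTG in 15.9% against 9.59%. The 14 members with an E2F match had a median log2 fold change of -0.30, with 10 below 0. The 22 members listed without one had a median of -0.14, with 15 below 0. A match is a run of letters and does not show that a factor was bound. Only exact runs within these regions were searched, so a region without a match may still hold a binding site.

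No member passed the adjusted threshold of 0.05, and the members stood lower more often than higher in the libraries labelled knockout. Of the 44, 30 had a negative log2 fold change (68.2%, against 49.6% of all tested genes), with a median of -0.19 against 0.005 over all tested genes. Called members numbered 0 higher and 0 lower by edgeR, with a smallest adjusted p of 0.545, where edgeR called 0% of tested genes in either direction. At an unadjusted p under 0.05 there were 4 lower members and 0 higher ones, against 4.35% and 3.95% of tested genes. DESeq2 called 1 member lower, Mcm6 (adjusted p = 0.0278), and 0 higher, where it called 0.521% of genes lower and 0.386% higher. In 21 members (47.7%) both labelled knockout libraries lay below both wild type libraries, against 20.1% of tested genes. In 3 members (6.82%) both lay above, against 21.9% of tested genes. With library totals in place of TMM the first count was 15, against 21.4% of tested genes, and the second was 1, against 18%. Bulk counts cannot tell fewer dividing cells from less RNA of these genes per cell. Summed macrophage markers were also lower in the libraries labelled knockout, at 412 and 276 CPM against 749 and 1123 CPM, and their part in the members' values was not tested.

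**Figure D1:**
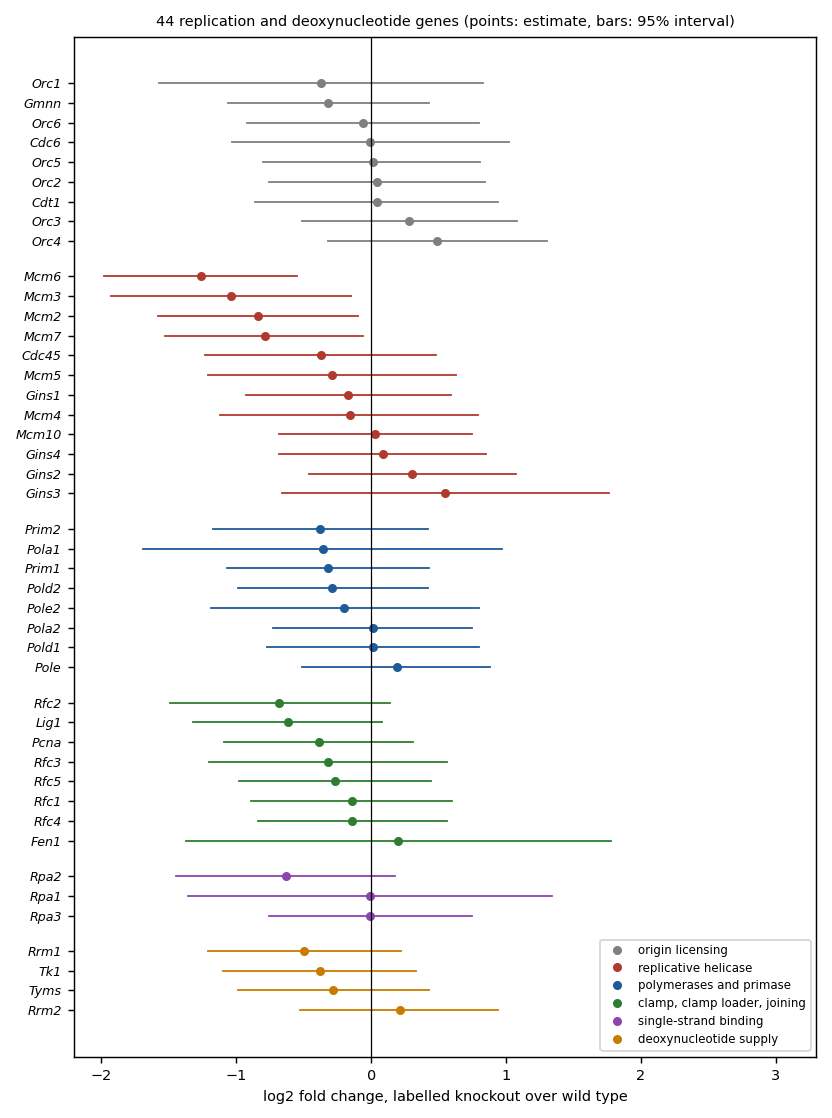
Log2 fold change of each of the 44 members on the horizontal axis, by role, with the edgeR estimate as a point and its 95% interval as a bar. Mcm6, Mcm3, Mcm2 and Mcm7 are the members whose intervals lie wholly below 0, and Orc4 and Gins3 have the highest estimates.

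The lower values were more frequent in knockout replicate 2 than in replicate 1. Replicate 2 was the lowest of the 4 libraries for 25 of the 44 members, against 23.4% of tested genes. It lay below knockout replicate 1 for 37 members, and the share of all tested genes that did so was not computed. Wild type replicate 2, the library that stood apart on all genes, was the lowest for 9 members, against 34.7% of tested genes. Without knockout replicate 1 the members' median log2 fold change was -0.39, and without knockout replicate 2 it was -0.11. In every fit that left out 1 library it stayed below 0.

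The helicase ring held the 4 lowest fold changes of the set. The summed level of Mcm2 to Mcm7 was 623 and 651 CPM in wild type replicates 1 and 2, and 401 and 294 CPM in knockout replicates 1 and 2. All 6 ring genes had a negative log2 fold change, with a median of -0.82, and in 4 of them both knockout libraries lay below both wild type libraries, where 49.6% and 20.1% of tested genes did so. Mcm6 (ENSMUSG00000026355, chromosome 1, 128331590 to 128359664, mm10), which encodes a subunit of the ring, had 222 and 243 CPM in wild type replicates 1 and 2, against 102 and 91 CPM in knockout replicates 1 and 2. Both labelled knockout libraries lay below both wild type libraries, and the replicates of a group lay close together. Its mean was 232 ± 14.7 CPM for wild type and 96.6 ± 7.92 CPM for knockout (SD, n = 2 each), so that the knockout mean was 41.6% of wild type. On the log2 scale this was a difference of -1.26 with an SE of 0.30 and a 95% interval of -1.98 to -0.55 (adjusted p = 0.545 by edgeR's quasi-likelihood test), and it ran from -1.38 to -1.18 when any 1 library was left out. Without wild type replicate 1, which leaves replicate 2 as the only wild type library, the log2 fold change was -1.37.

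Mcm3 (chromosome 1, 20802968 to 20820312) had 83.8 and 63.5 CPM in wild type, against 46 and 25.8 CPM in knockout. Its groups did not overlap, and the knockout libraries differed from each other 1.78-fold. Its log2 fold change of -1.04 missed the adjusted threshold (SE 0.38, 95% interval -1.93 to -0.15, edgeR adjusted p = 0.572), and was -0.68 without knockout replicate 2. Mcm2 (chromosome 6, 88883474 to 88898780), whose product faces MCM5 at the gate through which DNA enters the ring, had 79.9 and 79.4 CPM in wild type, against 52.6 and 36.5 CPM in knockout. The wild type libraries were nearly equal and both lay above both knockout libraries. Its log2 fold change was -0.84 (SE 0.31, edgeR adjusted p = 0.588). Mcm7 (chromosome 5, 138164583 to 138172422) had 135 and 174 CPM in wild type, against 97.2 and 80.9 CPM in knockout, which gave a log2 fold change of -0.79 (SE 0.31, edgeR adjusted p = 0.591). Its groups did not overlap. Mcm7 counts are uncertain, since a transcript of Gm5487 matches it at 97.682% identity over 2157 bases. Wild type libraries held 198 and 233 counts of Gm5487 and knockout libraries 145 and 82, while Mcm7 had 2478, 2675, 1576 and 1283.

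Mcm4 and Mcm5 did not separate the groups. Mcm4 (chromosome 16, 15623897 to 15637400), which carries phosphorylation sites for the CDC7 kinase, had 43.5 and 22.5 CPM in wild type, against 33.7 and 25.3 CPM in knockout. Wild type replicate 2 was the lowest of the 4. The log2 fold change of -0.16 (95% interval -1.12 to 0.79) turned to 0.35 without wild type replicate 1 and to 0.03 without knockout replicate 2. Mcm5 (chromosome 8, 75109569 to 75128439) had 59 and 68.7 CPM in wild type, against 69.7 and 34.7 CPM in knockout. Knockout replicate 1 was the highest of the 4 and replicate 2 the lowest. The log2 fold change was -0.29 (95% interval -1.21 to 0.63), and 0.13 without knockout replicate 2. Both intervals overlap that of Mcm6, and differences in fold change between ring genes were not tested.

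**Figure D2:**
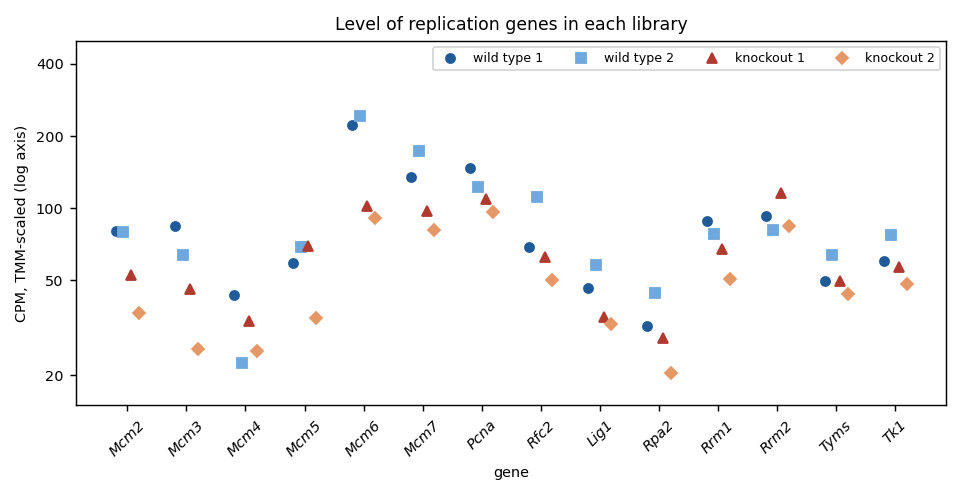
TMM-scaled CPM on a log axis for the ring genes, other named members and the deoxynucleotide genes, with 1 symbol per library. Mcm6 sits at 222 and 243 CPM in wild type, against 102 and 91 CPM in knockout, while Rrm2 overlaps between the groups.

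The make-up of the ring's counts within a library does not depend on scaling between libraries. Mcm6 supplied 35.6% of the ring's 11437 counts in wild type replicate 1 (95% Wilson interval 34.7 to 36.5) and 37.3% of 10014 in replicate 2 (36.3 to 38.2). In knockout its share was 25.5% of 6507 counts (24.4 to 26.5) and 30.9% of 4664 counts (29.6 to 32.3). Both knockout shares lay below both wild type shares. Mcm4 supplied 6.99% and 3.47% in wild type and 8.41% and 8.6% in knockout, and Mcm5 supplied 9.47% and 10.6% against 17.4% and 11.8%. For both genes the knockout shares lay above the wild type shares. The share of Mcm2 was nearly constant, from 12.2% to 13.1%. Wilson intervals cover counting error only, and the shares of 1 library sum to a fixed total, so a lower share of Mcm6 raises the others.

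**Figure D3:**
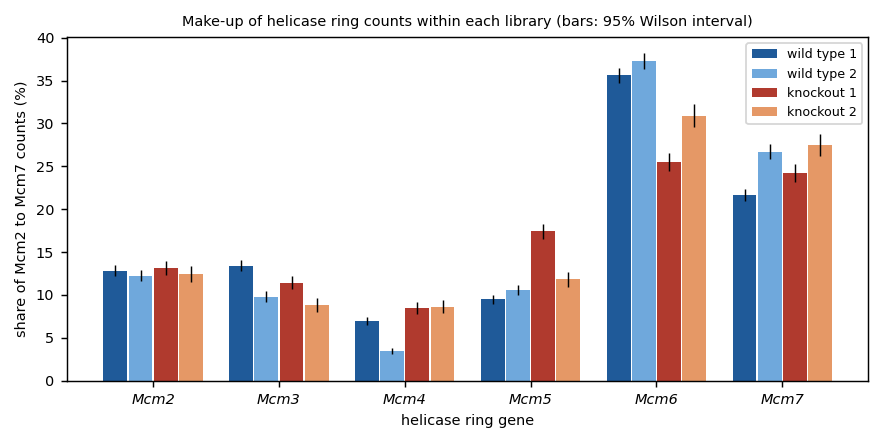
Share of the summed Mcm2 to Mcm7 counts that each gene supplied, in percent, with 1 bar per library and 95% Wilson intervals of counting error. The Mcm6 bars are at 35.6% and 37.3% in wild type and 25.5% and 30.9% in knockout.

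The 6 other helicase genes did not share a direction. Cdc45, which joins the ring to form the working helicase, had 19.9 and 17.3 CPM in wild type, against 16.7 and 12 CPM in knockout, which gave a log2 fold change of -0.37 (SE 0.36, edgeR adjusted p = 0.783). The groups did not overlap, but the gap between them was smaller than the gap between the knockout libraries. The GINS genes encode the 4 subunits of the complex that binds CDC45. Gins1 and Gins4 had log2 fold changes of -0.17 and 0.09. Gins2 had 33.1 and 26.2 CPM in wild type, against 41.6 and 31.7 CPM in knockout (fold change of 0.30 on the log2 scale), and these overlapped. Its counts are uncertain because 67.3% of its exon bases also lie in exons of Gse1 on the opposite strand. Gins3, at 2.56 and 2.92 CPM in wild type, against 4.63 and 3.41 CPM in knockout, had a value of 0.55 on the log2 scale (SE 0.51) and groups that did not overlap. Mcm10, a factor that helps activate the helicase, had one of 0.03.

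Licensing genes showed no shared direction, with 4 of 9 below 0 and a median of 0.01. The subunits of the origin recognition complex ran from -0.37 for Orc1 to 0.49 for Orc4 on the log2 scale. Orc4 had 30.4 and 20.3 CPM in wild type, against 32 and 39.3 CPM in knockout, and the groups did not overlap (SE 0.34, edgeR adjusted p = 0.702). Orc1, at 3.1 to 3.51 CPM in wild type and 2.53 to 2.59 CPM in knockout, was the lowest member per length. The loading factors Cdc6 and Cdt1 had log2 fold changes of -0.01 and 0.04. Gmnn encodes geminin, which blocks CDT1 after origins have fired. It had 30.8 and 26.7 CPM in wild type, against 21.2 and 25 CPM in knockout (fold change of -0.32 on the log2 scale, SE 0.32, edgeR adjusted p = 0.791), and the groups did not overlap. The difference between the licensing genes and the ring genes was not tested.

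Among 8 polymerase and primase genes, 5 were below 0, with a median of -0.24 and no estimate beyond -0.38. Prim1 and Prim2 encode the primase subunits that lay down RNA primers. Prim1 had 51.3 and 36.1 CPM in wild type, against 36 and 34.2 CPM in knockout, with wild type replicate 2 and knockout replicate 1 almost level. Prim2 had 20 and 20.4 CPM in wild type, against 16.8 and 14.3 CPM in knockout, so the groups did not overlap. Their log2 fold changes were -0.32 (SE 0.32) and -0.38 (SE 0.33). Pold2, an accessory subunit of the lagging-strand polymerase delta, had 67.6 and 69.1 CPM in wild type, against 63.7 and 48.2 CPM in knockout, which gave a log2 fold change of -0.29. The catalytic subunit genes Pold1 and Pole had 0.01 and 0.19. Pola1, the catalytic subunit of polymerase alpha, differed 3.1-fold between the wild type mice, more than the groups did (log2 fold change -0.36, SE 0.56).

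Clamp, clamp loader and joining genes were below 0 in 7 of 8, with a median of -0.29. Lig1 encodes the ligase that seals Okazaki fragments. It had 46.5 and 57.8 CPM in wild type, against 35 and 32.9 CPM in knockout, which gave a log2 fold change of -0.62 (SE 0.30, 95% interval -1.32 to 0.08, edgeR adjusted p = 0.631). The groups did not overlap. Rfc2, a clamp loader subunit, had 68.8 and 111 CPM in wild type, against 62.3 and 50 CPM in knockout (fold change of -0.68 on the log2 scale, SE 0.34, edgeR adjusted p = 0.634), and its groups did not overlap. Without wild type replicate 2 the value was -0.29. Pcna, the sliding clamp, had 147 and 123 CPM in wild type, against 109 and 96.2 CPM in knockout. Each knockout library lay below each wild type library, with a log2 fold change of -0.39 (SE 0.30, edgeR adjusted p = 0.717). The pseudogene Pcna-ps2 matches Pcna at 99.232% identity over 781 bases and had 472 to 821 counts, so some reads may be divided between them. Rfc1, Rfc3, Rfc4 and Rfc5 ran from -0.32 to -0.14. Fen1, which trims the flaps of Okazaki fragments, had 14.4 and 35.6 CPM in wild type, against 45 and 12.5 CPM in knockout. It varied 2.47-fold within wild type and 3.61-fold within knockout, and 78.8% of its exon bases are shared with Gm10143 on the opposite strand.

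Of the genes of replication protein A, which coats single-stranded DNA, Rpa2 had 32.1 and 44.1 CPM in wild type, against 28.6 and 20.6 CPM in knockout (fold change of -0.63 on the log2 scale, SE 0.34, edgeR adjusted p = 0.641). The groups did not overlap. Rpa1, the large subunit, had 109 and 33.1 CPM in wild type, against 90.1 and 51.1 CPM in knockout, so the mice of each group differed more than the groups. Rpa3 was level in all 4 libraries, from 20.7 to 22.7 CPM.

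The genes of deoxynucleotide supply were below 0 in 3 of 4, and the exception was Rrm2, the iron-carrying subunit of ribonucleotide reductase. Rrm1 (chromosome 7, 102441695 to 102469771), the large subunit with the active and allosteric sites, had 88.1 and 78.2 CPM in wild type, against 67.6 and 50.3 CPM in knockout. Both knockout libraries lay below both wild type libraries, with a log2 fold change of -0.50 (SE 0.30, 95% interval -1.21 to 0.22, edgeR adjusted p = 0.671). Rrm2 (chromosome 12, 24708241 to 24714146) had 92.4 and 80.9 CPM in wild type, against 116 and 83.9 CPM in knockout. Here the groups overlapped, with a log2 fold change of 0.21 (SE 0.31, 95% interval -0.53 to 0.94) that turned to -0.08 without knockout replicate 1. Tyms, the thymidylate synthase gene, had 49.7 and 63.7 CPM in wild type, against 49.5 and 43.8 CPM in knockout (fold change of -0.28 on the log2 scale, SE 0.30), with wild type replicate 1 and knockout replicate 1 almost level. Tk1, the thymidine kinase of S phase, had 59.9 and 77.1 CPM in wild type, against 56.9 and 48.1 CPM in knockout (fold change of -0.38 on the log2 scale, SE 0.30). Neither passed, with edgeR adjusted p values of 0.804 and 0.729.

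Within each library the ratio of Rrm2 to Rrm1 counts was 1.05 (exact 95% interval of counting error 0.98 to 1.12) and 1.03 (0.955 to 1.12) in wild type replicates 1 and 2. In knockout replicates 1 and 2 it was 1.71 (1.59 to 1.85) and 1.67 (1.53 to 1.82). The replicates of a group differed by less than their counting intervals, and the geometric mean of the ratio was 1.62-fold higher in the libraries labelled knockout. This ratio needs no scaling between libraries. It was 1 of 9 ratios of partner genes chosen after the values were seen, so no test is given for it. Pole to Pole2 gave 5.1 and 5.58 in wild type against 7.13 and 6.73 in knockout, and Rpa2 to Rpa3 gave 1.43 and 2.07 against 1.38 and 0.906. In both of these the values of the groups were separate but counting intervals overlapped between groups, and in the 6 remaining ratios the values overlapped. Single tested genes separated the groups with knockout below in 20.1% and above in 21.9%, and no such share was computed for ratios. Rrm2 to Rrm2b, which encodes the p53-inducible small subunit, gave 12 and 24.9 in wild type and 23.8 and 11.8 in knockout. The ratio of Cdt1 to its inhibitor Gmnn was 0.522 and 1.05 in wild type and 1.11 and 0.869 in knockout, and these overlapped.

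**Figure D4:**
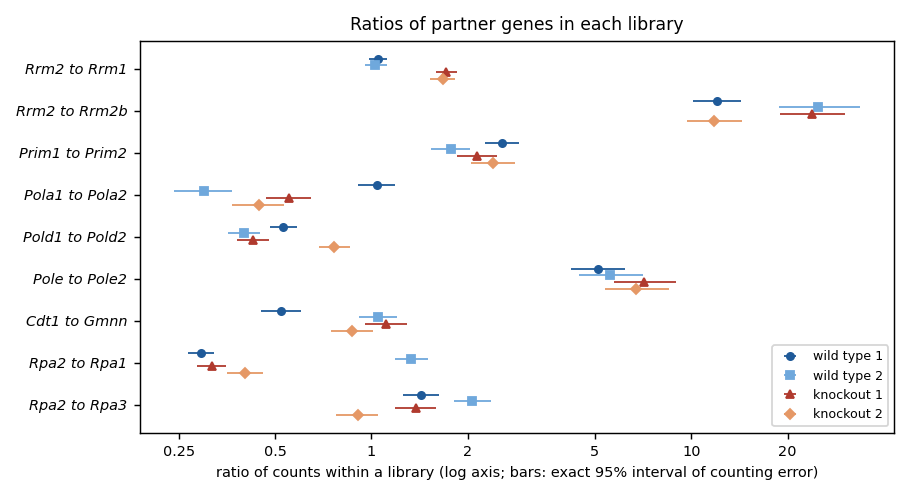
Ratio of the counts of 9 pairs of partner genes within each library on a log axis, with exact 95% intervals of counting error. Rrm2 to Rrm1 lies at 1.05 and 1.03 in wild type and at 1.71 and 1.67 in knockout.

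Levels between genes were compared as CPM per kilobase of the principal annotated transcript. Pcna had the highest mean over the 4 libraries, at 78.2, followed by Mcm6 at 56.5, Rrm2 at 42.5, Tk1 at 42 and Mcm7 at 41.1. The place of Mcm6 differed between the groups. In wild type it lay below Pcna (96.8 and 80.7 CPM per kilobase) in replicate 1 and above it in replicate 2, and in knockout it lay below Rrm2 (52.9 and 38.3) and Tk1 (39.5 and 33.4) in each library. Orc1 was the lowest at 0.973, with Gins3 at 1.34 and Cdc6 at 2.46. Within the ring, Mcm6 had 76.2 and 83.4 CPM per kilobase in wild type and 35.1 and 31.3 in knockout, above Mcm7, which had 45.6 and 58.7 against 32.8 and 27.3. The knockout libraries overlapped between these 2 genes. Mcm2, Mcm3 and Mcm5 had neighbouring means of 18.4, 18.1 and 17.2 that did not differ beyond their spread over libraries. Mcm4 was the lowest of the ring, from 6.28 to 12.1 CPM per kilobase.

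The remaining 22 members, which include Mcm10, most origin recognition genes and the catalytic polymerase subunits, ran from -0.37 to 0.28 on the log2 scale and from 2.53 to 109 CPM. Of these, 12 were below 0, and in 5 both knockout libraries lay below both wild type libraries, while in 1 (Pole) both lay above, where 20.1% and 21.9% of tested genes did so. Replicates varied more than 1.5-fold within wild type for 6 of all 44 members and within knockout for 4.

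Genes of related processes outside the set were counted in the same way, and differences between lists were not tested. Of 32 other replication factors, 15 had a negative log2 fold change (median 0.04), 0 passed edgeR's threshold in either direction, and both knockout libraries lay below both wild type libraries in 6 (18.8%, against 20.1% of tested genes) and above them in 7 (21.9%, against 21.9%). The 3 with the smallest p all had negative values. Of these, Uhrf1, which reads hemimethylated DNA behind the fork, had 66.1 and 58.9 CPM in wild type, against 35.5 and 28 CPM in knockout (fold change of -0.98 on the log2 scale, SE 0.30, edgeR adjusted p = 0.547). The groups did not overlap for Uhrf1 or for the next 2 by p. These were the histone chaperone gene Chaf1a, at -0.82 (SE 0.31), and the alternative clamp loader gene Chtf18, at -0.77 (SE 0.41). Of 17 other deoxynucleotide genes 10 were below 0 (median -0.13), 0 passed, and Dtymk, the thymidylate kinase gene, had 140 and 165 CPM in wild type, against 67 and 102 CPM in knockout. Adk, the adenosine kinase gene, had a log2 fold change of 0.75 (SE 0.41; 0.37 without wild type replicate 1), and Shmt1, which supplies one-carbon units for thymidylate, had 0.55 (SE 0.32).

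The E2F, RB and G1/S list held 19 tested genes, of which 6 were below 0 (median 0.11) and 0 passed. Rb1, the retinoblastoma gene that restrains E2F, had 10.6 and 10.1 CPM in wild type, against 18.1 and 18.4 CPM in knockout. Both knockout libraries lay above both wild type libraries, and its log2 fold change of 0.82 missed the adjusted threshold (SE 0.34, 95% interval 0.01 to 1.64, edgeR adjusted p = 0.598). Cdk2, the S-phase kinase, and E2f8, a repressing E2F factor, had 0.74 (SE 0.36) and 0.67 (SE 0.38). Of 14 checkpoint genes 6 were below 0 (median 0.08) and 0 passed. The 3 with the smallest p were Hus1 at 0.77, Wee1 at -0.43 and Rad17 at 0.38. The wild type libraries differed 2.9-fold for Hus1, whose value was 1.70 without wild type replicate 1 and 0.20 when replicate 2 was left out instead.

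The 16 mitosis genes had a median of -0.06, with 10 below 0 and 0 passing. Their summed level was 1390 and 987 CPM in wild type, against 1159 and 1207 CPM in knockout, so the groups overlapped. Both knockout libraries lay between the wild type libraries, of which replicate 2, the library that stood apart on all genes, was the lower. The summed ring level did not overlap, and the difference between these lists was not tested. The mitotic kinase genes Aurkb, Plk1 and Aurka had log2 fold changes of 0.37, 0.40 and -0.32.

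Enzymes of DNA metabolism with an iron or iron-sulphur centre numbered 10, of which 4 are members (Rrm2, Prim2, Pold1 and Pole). Of the 10, 2 had a negative log2 fold change (median 0.20), 0 passed, and in 5 both knockout libraries lay above both wild type libraries, against 21.9% of tested genes. Ercc2, a helicase of transcription and repair, had 20.2 and 15.6 CPM in wild type, against 21.7 and 39.7 CPM in knockout, with a log2 fold change of 0.78 (SE 0.40) that was 0.28 without knockout replicate 2. Rtel1, a helicase of telomeres, had 0.42 (SE 0.31). Dna2, a nuclease and helicase of Okazaki fragments, had 37.6 and 19.6 CPM in wild type, against 39.4 and 40.1 CPM in knockout, and its log2 fold change of 0.47 was 0.08 without wild type replicate 2.

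**Figure D5:**
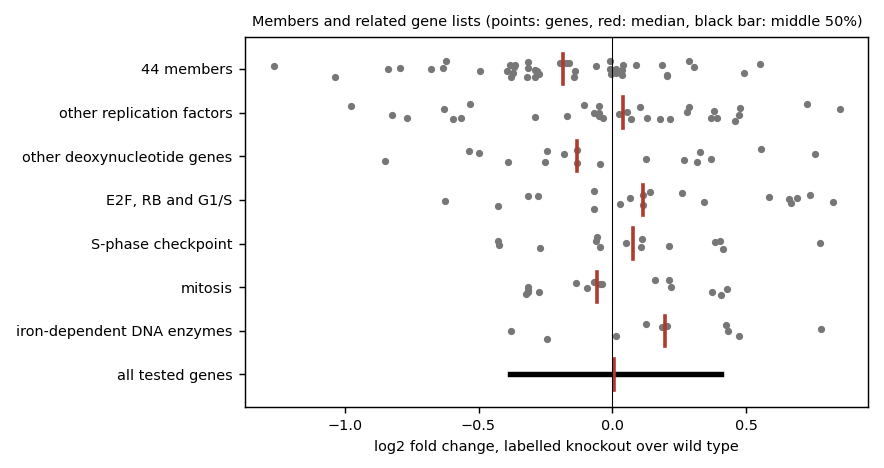
Log2 fold change of each tested gene (points) for the 44 members and 6 related lists, with medians in red and the middle 50% of all tested genes as a black bar. The members' median is -0.19 and that of other replication factors 0.04.

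Markers of several cell types differed in level between the labelled groups, and edgeR called 0 of them. All 10 macrophage markers were below 0 (summed 749 and 1123 CPM in wild type, 412 and 276 in knockout), as were 6 of 7 tested erythroid markers (summed 959 and 2177 against 214 and 152) and 6 of 7 endothelial markers (135 and 153 against 98.3 and 79.8). For neutrophils all 5 tested markers were below 0 (24 and 66.1 against 12.9 and 13.9), and for stellate cells and fibroblasts 7 of 8 (1406 and 1207 against 632 and 1145). The neutrophil marker Ly6g was at 0 in all libraries, and no other marker was. DESeq2 called 2 macrophage, 2 neutrophil, 4 erythroid and 1 stellate cell marker lower, where it called 0.521% of all tested genes lower. The 10 hepatocyte markers summed to 13486 and 45585 CPM in wild type, against 34568 and 32264 in knockout, with Alb at 5376 and 29461 against 21874 and 16813. Of these 10, 2 were below 0. Cholangiocyte markers summed to 415 and 974 against 1070 and 1125 CPM, with 3 of 5 below 0. T and NK cell markers summed to 26.3 and 11.3 against 18.9 and 16.1 CPM (2 of 7 below 0), and B and plasma cell markers to 5.66 and 4.22 against 5.55 and 8.51 CPM (1 of 4). Mitochondrial transcripts took 8.69% and 4.13% of wild type counts, against 9.8% and 16.6% in knockout. All 13 listed ones were above 0, and DESeq2 called 2 of them higher, where it called 0.386% of all tested genes higher. The part of these differences in the members' levels was not tested. Myc did not differ detectably, with 79.5 and 59.9 CPM in wild type, against 86.4 and 53.7 CPM in knockout, and the sources used here do not say whether transgene reads were counted with it.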

How the data were processed

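Libraries were made with a VAHTS mRNA-seq kit, per the labels' protocols. The authors deposited 1 table with raw counts and FPKM for each of the 4 libraries. Per the submitters' processing notes, HISAT2, SAMtools 1.3.1, StringTie and edgeR were used with mm10; their roles and the strandedness are not stated in the sources used here. Reads of genes that overlap on opposite strands are therefore treated as inseparable. Exon bases were shared with another gene, on either strand, in 17 members. After Fen1 and Gins2, the largest shares were 29.8% for Orc2 (with Nif3l1), 15.1% for Rfc2 (with Lat2) and 12.7% for Rfc4 (with Eif4a2). The counts of these 3 genes carry the same uncertainty. Spans in the table equalled those of GENCODE M21 for all 44 members. The length behind the deposited FPKM equalled the summed lengths of all distinct exon records of a gene for 44 of 44 members, from 1 to 5.25 times the principal transcript. Overlapping exon records count more than once in it, so the deposited FPKM was used for no comparison between genes, and levels were taken per kilobase of the APPRIS principal transcript.

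Genes were filtered with filterByExpr, scaled by TMM and tested two-sided with edgeR's quasi-likelihood test (edgeR 4.0.16, R 4.3.3) without a block, with Benjamini-Hochberg adjustment over 16310 genes. The test was checked on simulated counts. Since a group has 2 libraries, each gene's spread was mainly estimated by sharing information across genes. Replicates are separate mice per the series' design text. The replicate numbers were not taken to pair the samples, because the labels tie them to nothing shared and there are only 2 pairs. Similar genes were found by blastn of principal transcripts, at 90% identity or more over 300 bases and 25% of the transcript. Alternatives were scaling by library totals or by the size factors of DESeq2, no filter, a mean of at least 5 CPM, DESeq2 1.42.0, limma-voom (limma 3.58.1), a replicate block and leaving out each library.

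The members and lists were chosen with earlier results of these data known. Values per library are given for the deoxynucleotide genes, the ring genes and the 12 other members with the smallest p, and for related lists up to 3 genes with the smallest p are named, with at most 2 of the highest level for marker lists. Fen1, Rpa1, Rpa3, Orc1 and Pola1 were added for their spread or level after values were seen.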

Additional observations from a re-analysis of the deposited data

How the results depend on the processing

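The members' median log2 fold change was below 0 under every alternative run, from -0.39 to -0.11, and the number of members below 0 ran from 25 to 37. Leaving out 1 library gave medians of -0.39 to -0.11. In a comparison of scalings chosen after seeing the data, both knockout libraries lay below both wild type libraries for 21 members with DESeq2's size factors and 15 with library totals, and above them for 3 and 1. Of all tested genes, 20.8% and 21.4% lay below under these 2 scalings, and 21.2% and 18% above. Over all genes DESeq2 called 63 higher and 85 lower and 1 member lower, limma-voom and library totals each called 1 gene lower, and the replicate block called 2 higher and 2 lower, with 0 members. Leaving out 1 library gave 0 to 209 genes higher, 0 to 200 lower and 0 to 1 members lower; the highest counts came from the fit lacking wild type replicate 1, and the one lacking its replicate 2 gave 29 higher and 39 lower. The labels tie the replicate numbers to no shared batch. Deviations of same-numbered libraries had a correlation of 0.121 across genes over 2 pairs, and with the replicate block the members' median was -0.17. Of the 22 members named by the rule, 3 turned sign: Mcm4, from -0.56 to 0.35 when 1 library was left out (0.35 lacking wild type replicate 1, 0.03 lacking knockout replicate 2), Mcm5, from -0.91 to 0.13 (lacking knockout replicate 2), and Rrm2, from -0.08 (lacking knockout replicate 1) to 0.42. Of the 5 members added for their spread or level, Fen1 (-1.04 to 1.00), Pola1 (-0.96 to 0.64), Rpa1 (-0.63 to 1.06) and Rpa3 (-0.07 to 0.03) also turned sign when 1 library was left out. Among the remaining members, Mcm10, Orc2, Orc5, Orc6, Cdc6, Cdt1, Gins4, Pola2, Pold1 and Rfc1 turned sign in such fits too. Among alternatives that kept all libraries, Mcm6 passed only with DESeq2 (-1.28, DESeq2 adjusted p = 0.0278). Without wild type replicate 1 its log2 fold change was -1.37. The cause of these changes was not tested. Where 1 library remained in a group, it was taken to have the spread of the other group. At 2 libraries a group, standard errors of 0.29 to 0.66 on the log2 scale limit what could be detected.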
